A study of Mus musculus with 48 samples.

Results

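The 10 genes described here were a set of genes of blood vessel cells and their surroundings: Myh11, Acta2, Tagln, Ccn1 (also written Cyr61), Ctla2a, Ctla2b, Ptger4, Pdgfrb, Cldn5 and Ltbp2. They were 10 of the 19752 gene symbols to which the probes of the mRNA array could be assigned through their RefSeq transcripts, and each gene had a single probe among 55681. The genes were chosen by their measured levels in 1 contrast, that between the Tg2576 and wild-type (WT) cortices at 10 months, in which several of them read lower in Tg2576, so this contrast is described without a test. The name of the set rests on what is known of the genes: Ctla2a, Ctla2b, Ptger4 and Ltbp2 are also expressed outside vessels.

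Total RNA from the cortex or the whole brain of male mice was hybridised to 1-colour Agilent arrays. WT mice were C57BL/6J. Tg2576 mice carry Tg(APPSWE)2576Kha, human amyloid precursor protein with the Swedish mutation driven by the hamster prion promoter, and accumulate amyloid beta with age. Both genotypes were sampled at 10 and at 17 months in both tissues, with 3 arrays for each of the 8 groups and 24 mRNA arrays in all. The labels do not say whether the 3 arrays of a group, or the cortex and whole brain arrays, came from separate mice, so every p-value measures the spread between these arrays, which may be partly technical.

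Arteries are wrapped in smooth muscle cells, which contract through smooth muscle actin and myosin, and brain capillaries are wrapped in pericytes, which need the receptor for platelet-derived growth factor. The endothelial cells that line the vessels are sealed by claudins and form the blood-brain barrier. In bulk tissue, fewer cells of a type and less RNA in each cell cannot be told apart.

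The promoters of 4 genes are shown, from RefSeq on build GRCm38.p6: Acta2 and Ccn1, which hold short motifs of factors known to act on smooth muscle and early response genes, and the Ctla2 pair, to show how closely the 2 copies resemble each other. Each sequence is the 250 bases before the transcription start, on the minus strand, read 5′ to 3′. Capitals mark a CArG-type box, the element bound by serum response factor (1 departure allowed), GGAATG, the letters bound by TEAD factors, and TGACGT, a part of the cAMP response element, each searched on both strands. The windows are chr19:34255374-34255623 for Acta2, chr3:145649986-145650235 for Ccn1, chr13:60936626-60936875 for Ctla2a and chr13:60897448-60897697 for Ctla2b.
Acta2: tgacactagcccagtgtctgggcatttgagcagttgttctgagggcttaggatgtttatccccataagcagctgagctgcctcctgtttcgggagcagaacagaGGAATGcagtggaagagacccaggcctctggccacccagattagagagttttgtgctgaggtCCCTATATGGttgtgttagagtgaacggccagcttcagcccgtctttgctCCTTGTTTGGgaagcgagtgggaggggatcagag
Ccn1: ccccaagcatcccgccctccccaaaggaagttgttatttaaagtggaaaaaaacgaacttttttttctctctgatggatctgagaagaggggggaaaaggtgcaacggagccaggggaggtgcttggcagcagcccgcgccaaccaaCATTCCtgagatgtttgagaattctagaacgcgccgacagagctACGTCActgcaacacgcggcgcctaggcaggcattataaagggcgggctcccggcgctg
Ctla2a: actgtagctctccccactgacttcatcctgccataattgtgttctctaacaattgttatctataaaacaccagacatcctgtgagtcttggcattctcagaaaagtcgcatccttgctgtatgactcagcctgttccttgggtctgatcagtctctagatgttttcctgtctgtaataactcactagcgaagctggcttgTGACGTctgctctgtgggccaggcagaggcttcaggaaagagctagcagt
Ctla2b: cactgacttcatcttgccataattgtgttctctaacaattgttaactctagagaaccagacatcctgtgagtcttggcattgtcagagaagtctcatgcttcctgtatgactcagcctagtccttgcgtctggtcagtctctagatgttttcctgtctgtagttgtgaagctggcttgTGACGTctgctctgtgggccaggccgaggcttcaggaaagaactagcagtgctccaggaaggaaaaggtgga
The Acta2 window held 2 CArG-type boxes, the nearest 25 bases before the start, and GGAATG 141 bases before it. The Ccn1 window held GGAATG on the opposite strand 98 bases before the start and TGACGT on the opposite strand at 54 bases. TGACGT was also found in Ctla2a, 45 bases before the start, and in Ctla2b, at 67 bases. The windows of Ptger4, Cldn5 and Ltbp2 were searched too and held none of these motifs, and Ccn1 and the Ctla2 pair held no CArG-type box. Among the windows of 27025 genes, 8.65% held the CArG-type box, 12.6% held GGAATG and 6.56% held TGACGT. Where a gene had several starts, these windows used the first listed, and those of the members the start farthest upstream. The motifs were chosen after the sequences were seen, and a match is a description of letters, not a binding site. The Ctla2a and Ctla2b windows aligned over 236 columns with 209 identical bases (88.6%). Myh11, Tagln and Pdgfrb have no entry in that table.

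Levels are log2 intensities relative to the 75th percentile of the same array, so that 0 is the level of that percentile and a difference of 1 is a 2-fold change. Levels of different genes come from different probes and were not set against each other. Between 34155 and 41087 probes were well above background on an array, and arrays of a group correlated at 0.986 to 0.993 over all probes, against up to 0.992 between groups. The App probe read higher in Tg2576 than in WT without overlap in 1 of the 4 tissue and age pairs, the 10-month-old whole brain (6.04 ± 0.071 against 5.79 ± 0.026, SD, n = 3), and the groups overlapped in the other 3; whether the probe reads the human transcript is not given in the sources used here. The 24 arrays lay on 3 slides of 8. All 10 genes were well above background on all 24 arrays, except Ptger4 on 1 array of 17-month-old WT cortex.

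**Figure D1:**
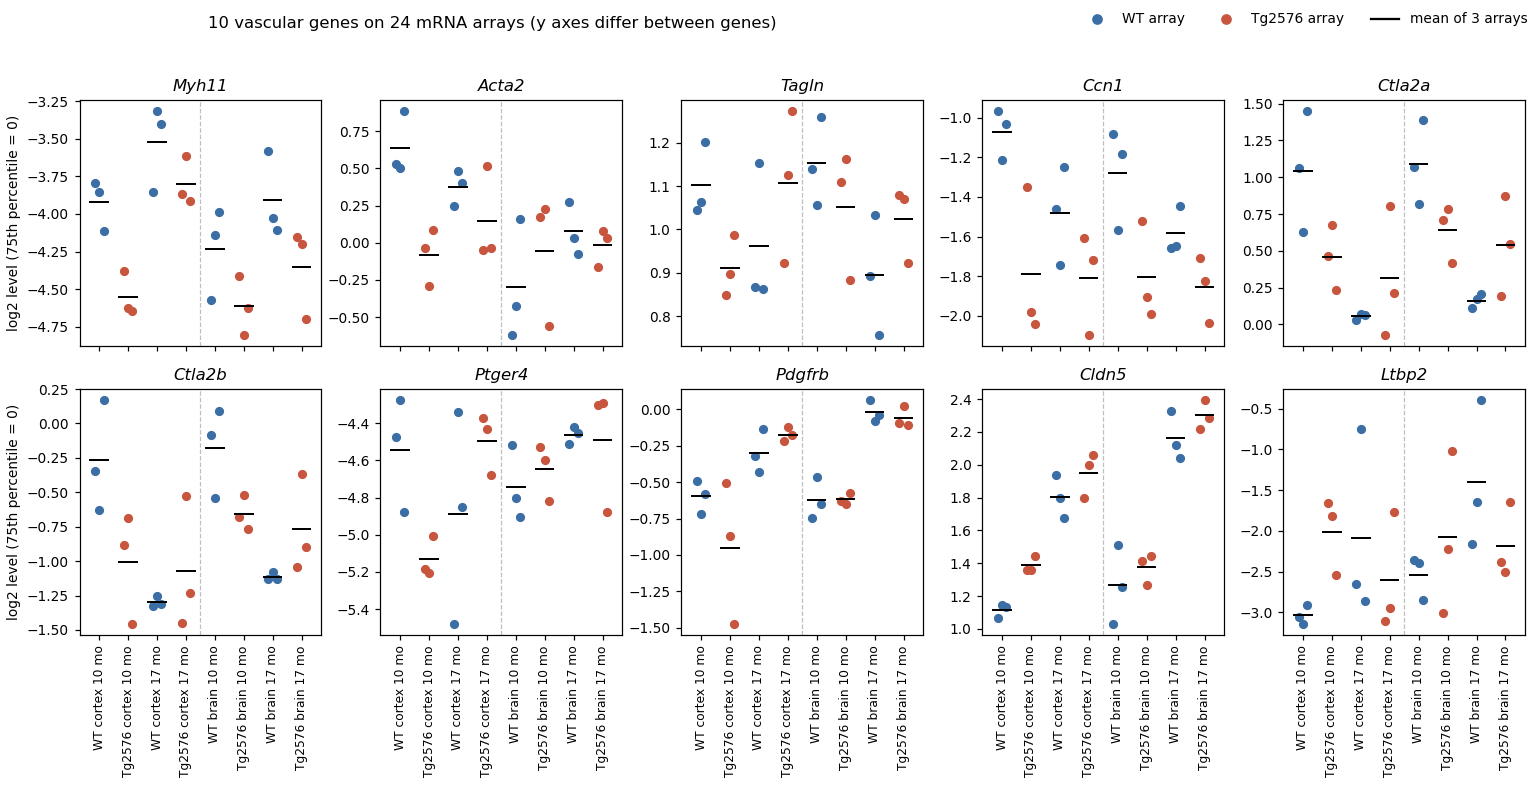
Level of each of the 10 genes (y axis, log2 intensity relative to the array's 75th percentile) in the 8 groups (x axis), with 1 point for each of the 24 arrays and the group mean as a bar. Cldn5 sits highest in 17-month-old whole brain, while Ctla2a and Ctla2b sit highest in the 10-month-old WT groups.

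The contractile genes of smooth muscle came first. Myh11, the heavy chain of smooth muscle myosin, read -3.79, -3.86 and -4.12 in WT cortex and -4.38, -4.63 and -4.65 in Tg2576 cortex at 10 months. In the 17-month-old cortices it read -3.85, -3.32 and -3.40 in WT and -3.87, -3.61 and -3.91 in Tg2576. The groups did not overlap at 10 months and overlapped at 17 months. In whole brain the WT arrays read -4.57, -4.14 and -3.99 at 10 months and -3.58, -4.03 and -4.10 at 17 months, and the Tg2576 arrays -4.41, -4.81 and -4.62 at 10 months and -4.15, -4.20 and -4.70 at 17 months. Myh11 was thus lower in Tg2576 by group mean in all 4 tissue and age pairs, by 0.63 in the 10-month-old cortex, where it is a description, and by values that did not pass the test elsewhere. Its probe was dim, with intensities of 19.5 to 77.8. With another background correction, normexp on the spot's median signal, the 10-month-old cortex difference was -0.26. Elsewhere the smallest differences under other processing were -0.13 in 17-month-old cortex and -0.16 and -0.07 in 10- and 17-month-old whole brain. The order of the 8 group means ran from -3.52 ± 0.29 (SD, n = 3) in the 17-month-old WT cortex to -4.61 ± 0.2 in the 10-month-old Tg2576 whole brain.

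Acta2, smooth muscle alpha actin, read 0.53, 0.51 and 0.88 in 10-month-old WT cortex and -0.03, -0.29 and 0.08 in 10-month-old Tg2576 cortex. At 17 months it read 0.25, 0.48 and 0.40 in WT cortex and -0.05, 0.52 and -0.04 in Tg2576 cortex. All 3 WT arrays lay above all 3 Tg2576 arrays at 10 months, and 1 Tg2576 array of 17 months lay above every WT array of that age. In whole brain the direction at 10 months was the other way, with -0.62, -0.43 and 0.16 in WT and 0.17, 0.22 and -0.56 in Tg2576, and the groups overlapped. The 17-month-old whole brains read 0.27, 0.03 and -0.07 in WT and -0.16, 0.08 and 0.03 in Tg2576. The 10-month-old WT groups of the 2 tissues were the highest (0.64 ± 0.21) and the lowest (-0.30 ± 0.41) of the 8 group means of Acta2.

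Tagln, transgelin, an actin-binding protein of smooth muscle, varied least. Its 8 group means ran from 0.89 ± 0.14 to 1.15 ± 0.1, a spread of 0.26 against a within-group SD of 0.13, and neighbours in that order did not differ beyond their spread. In 10-month-old cortex the arrays read 1.05, 1.06 and 1.20 in WT and 0.85, 0.90 and 0.99 in Tg2576, without overlap.

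Pdgfrb, the pericyte receptor for platelet-derived growth factor, differed more between the ages than between the genotypes in whole brain. The WT ages lay on different slides there, so age and slide cannot be told apart in WT. In whole brain Pdgfrb read -0.74, -0.47 and -0.65 in 10-month-old WT and 0.06, -0.08 and -0.04 in 17-month-old WT mice. The Tg2576 whole brains read -0.63, -0.65 and -0.57 at 10 months and -0.09, 0.02 and -0.11 at 17 months. In both genotypes every 17-month-old whole brain lay above every 10-month-old one, as for 21.7% of the probes tested in WT and 18.5% in Tg2576. The cortices read -0.49, -0.72 and -0.58 in WT and -0.51, -0.87 and -1.47 in Tg2576 at 10 months, and -0.32, -0.43 and -0.13 in WT and -0.22, -0.12 and -0.18 in Tg2576 at 17 months. The lower mean of the 10-month-old Tg2576 cortex (-0.95 ± 0.49) rested largely on replicate 3: the difference from WT was -0.35, and -0.09 without that array.

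Cldn5, the claudin of brain endothelial tight junctions, separated the groups most clearly of the 10 genes: its group means spanned 1.18, 9.06 times the within-group SD of 0.13. It read 1.03, 1.51 and 1.26 in the whole brains of 10-month-old WT mice and 2.33, 2.12 and 2.04 in those of 17-month-old WT mice. The Tg2576 whole brains read 1.42, 1.27 and 1.44 at 10 months and 2.22, 2.39 and 2.29 at 17 months. No 10-month-old array reached the lowest 17-month-old array. Within a genotype this held for 21.7% of the probes tested in WT and 18.5% in Tg2576. In cortex it read 1.07, 1.15 and 1.13 in WT and 1.36, 1.36 and 1.44 in Tg2576 at 10 months, and 1.94, 1.80 and 1.67 in WT and 1.80, 2.0 and 2.06 in Tg2576 at 17 months. By group mean Cldn5 was higher in Tg2576 than in WT in all 4 tissue and age pairs, by 0.27 in 10-month-old cortex, without overlap there.

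Ccn1, a matricellular protein and early response gene induced in vessel cells by stretch and growth factors, read -0.97, -1.21 and -1.03 in 10-month-old WT cortex and -1.35, -1.98 and -2.04 in 10-month-old Tg2576 cortex. In whole brain at the same age it read -1.08, -1.56 and -1.18 in WT and -1.52, -1.91 and -1.99 in Tg2576, where 1 WT array lay just below the highest Tg2576 array. At 17 months it read -1.46, -1.74 and -1.25 in WT and -1.61, -2.10 and -1.72 in Tg2576 cortex. The 17-month-old whole brains read -1.66, -1.65 and -1.44 in WT and -1.71, -1.82 and -2.04 in Tg2576, without overlap. Of all probes tested in that comparison, 9.26% were lower in Tg2576 without overlap. The 4 WT group means (-1.07 to -1.58) were the 4 highest and the 4 Tg2576 group means (-1.79 to -1.86) the 4 lowest, and the Tg2576 means did not differ among themselves beyond their spread.

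Ctla2a and Ctla2b, a pair of neighbouring genes named after T lymphocytes that encode relatives of cathepsin propeptides and are expressed in mouse endothelium, moved together: over the 24 arrays their levels correlated at 0.98, and at 0.95 after each group's mean was removed. Their transcripts are close copies, and cross-hybridisation of the probes was not tested, so they may not be 2 independent measurements. Ctla2a read 1.06, 0.63 and 1.45 in 10-month-old WT cortex and 0.47, 0.67 and 0.23 in 10-month-old Tg2576 cortex, which overlapped. At 17 months it read 0.03, 0.07 and 0.06 in WT cortex and -0.07, 0.81 and 0.22 in Tg2576 cortex. The WT cortices thus lay close together at 17 months, and the Tg2576 cortices were spread around them. In whole brain Ctla2a read 1.07, 0.82 and 1.39 in WT and 0.71, 0.79 and 0.42 in Tg2576 at 10 months, and 0.11, 0.17 and 0.21 in WT and 0.20, 0.87 and 0.55 in Tg2576 at 17 months. Each WT array lay above each Tg2576 array at 10 months, as for 9.01% of the probes tested, and the 17-month-old groups overlapped at 0.20 and 0.21.

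Ctla2b read -0.34, -0.63 and 0.17 in WT and -0.89, -0.68 and -1.45 in Tg2576 cortex at 10 months, without overlap, and -1.33, -1.25 and -1.31 in WT and -1.45, -0.53 and -1.23 in Tg2576 cortex at 17 months. In whole brain it read -0.08, -0.54 and 0.09 in WT and -0.68, -0.52 and -0.77 in Tg2576 at 10 months. At 17 months the whole brains read -1.13, -1.08 and -1.13 in WT and -1.05, -0.36 and -0.90 in Tg2576, where every Tg2576 array lay above every WT array. That held for 12.8% of all probes tested in this comparison.

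The order of arrays for the Ctla2 pair recurred between tissues. Over the 12 pairs of a cortex and a whole brain array with the same group and replicate number, the deviations from the group means correlated at 0.976 for Ctla2a and 0.908 for Ctla2b, the 3rd and 26th highest of 14587 genes, whose median was 0.0176. The highest was that of Hbb-bt, a beta globin of red blood cells, at 0.993. Ccn1 gave 0.693 and Cldn5 0.618, while the values of Acta2 (0.0983), Tagln (0.0875), Ltbp2 (-0.231), Pdgfrb (-0.292) and Myh11 (-0.310) were near 0 or below it. These correlations were computed after the array values were seen and are a description: the whole brain arrays may not be independent of the cortex arrays with the same number, and their values, those of the Ctla2 pair, Ccn1 and Cldn5 above all, are no separate replication of those of the cortex.

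**Figure D2:**
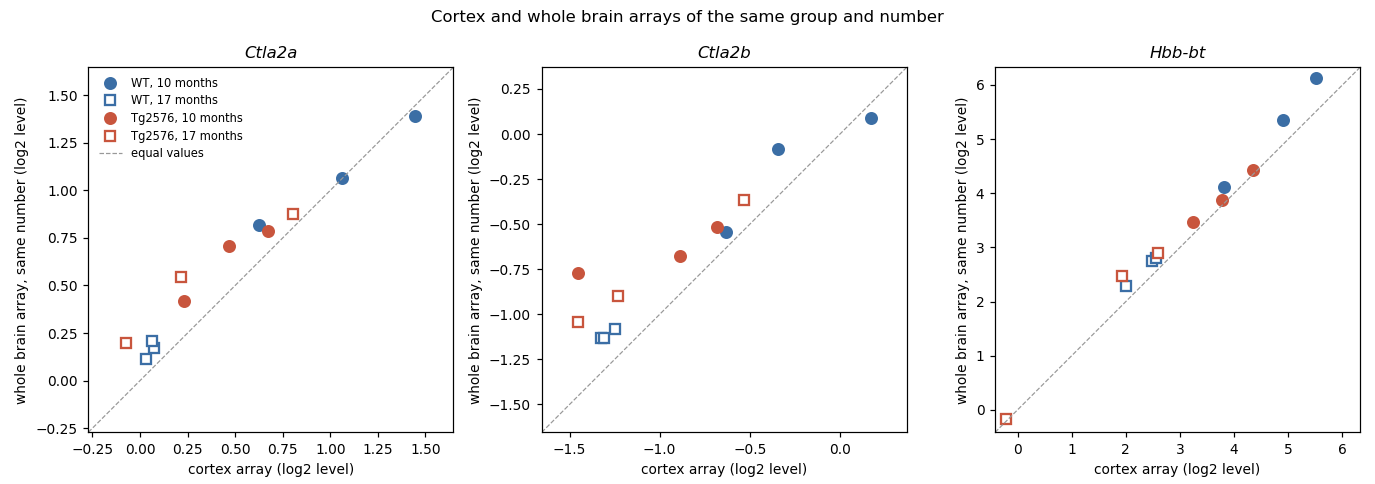
Level in the cortex array (x axis) against the level in the whole brain array of the same group and replicate number (y axis), both as log2 intensity relative to the array's 75th percentile, for Ctla2a, Ctla2b and Hbb-bt, with 1 point for each of the 12 pairs. The whole brain level follows the cortex level for all 3 genes, at or above the line of equal values for most pairs, with correlations of deviations from group means of 0.976, 0.908 and 0.993.

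Ptger4, the EP4 receptor for prostaglandin E2, was close to the background, with levels between -5.48 and -4.28 on the 24 arrays. In 10-month-old cortex the arrays read -4.47, -4.28 and -4.88 in WT and -5.18, -5.21 and -5.00 in Tg2576, without overlap and with the Tg2576 mean the lowest of the 8 group means. With normexp on the spot's median signal this difference was -0.0062 in place of -0.59.

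Ltbp2, a protein of elastic fibres from the family of latent TGF-beta binding proteins, was the member whose arrays varied most within a group, with a within-group SD of 0.73. In cortex it read -3.06, -3.14 and -2.91 in WT and -1.66, -1.82 and -2.54 in Tg2576 at 10 months, without overlap, and -2.66, -0.75 and -2.86 in WT and -3.11, -2.95 and -1.77 in Tg2576 at 17 months. The whole brains read -2.36, -2.40 and -2.85 in WT and -3.01, -2.22 and -1.01 in Tg2576 at 10 months, and -2.16, -1.64 and -0.39 in WT and -2.39, -2.51 and -1.65 in Tg2576 at 17 months. A single array stood above the others in several groups, and apart from the 10-month-old cortex the genotypes overlapped in each tissue and age.

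The genotypes were then compared for these genes in each tissue and age. The study's methods name different suppliers for the WT and the Tg2576 mice, so transgene and supplier cannot be told apart. At 10 months in cortex, the contrast by which the set was chosen, 8 of the 10 genes were lower in Tg2576, and 6 of them (Myh11, Acta2, Tagln, Ccn1, Ctla2b and Ptger4) without overlap. Over all probes 8.94% were lower and 8.29% higher in Tg2576 without overlap, beside which nothing is read from the members. The differences of the log2 levels were -0.63 for Myh11, -0.72 for Acta2, -0.19 for Tagln, -0.72 for Ccn1, -0.59 for Ctla2a, -0.74 for Ctla2b, -0.59 for Ptger4, -0.35 for Pdgfrb, 0.27 for Cldn5 and 1.03 for Ltbp2. In the same contrast the list of 25 tested genes of smooth muscle cells and pericytes had a median difference of -0.05, the 30 endothelial genes a median of -0.09 and all probes a median of 0.01, and nothing is read from how the chosen genes compare with these lists. Cnn1, calponin of smooth muscle, read -2.52 ± 0.063 in WT and -2.69 ± 0.051 in Tg2576, and Pecam1, an adhesion molecule of endothelium, -1.36 and -1.35.

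Other tissue markers also differed in that contrast. All 12 tested marker genes of the olfactory bulb were higher in Tg2576, with a median difference of 2.14, and their summed level, in multiples of the 75th percentile, ran from 5.59 to 9.76 in the WT and from 11.5 to 32.3 in the Tg2576 arrays. All 6 tested blood genes were lower, with a median of -0.55 and a summed level of 37.1 to 127 in WT and 22.4 to 50.5 in Tg2576. The part of either in the values of the 10 genes was not tested. Within groups Ltbp2 correlated with the olfactory bulb list at 0.25 and with the astrocyte list at 0.68, over 24 arrays, and Ctla2a correlated with the blood list at -0.46. With the group means kept, Ctla2a and the blood list correlated at 0.41. The largest within-group value of Ctla2a among the lists was 0.60, with the endothelial list.

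In the cortex of 17-month-old mice none of the 10 genes passed the test between Tg2576 and WT (limma, adjusted p at or above 0.597), as for 0 of 38889 probes (0%). Without adjustment 0 of the 10 genes and 9.32% of the probes had a p under 0.05, 3625 by limma and 3353 by the methods' t-test, which passed 0 after adjustment. The differences were -0.27 (SE 0.17) for Myh11, -0.23 for Acta2, 0.15 for Tagln, -0.32 (SE 0.18) for Ccn1, 0.26 for Ctla2a, 0.23 for Ctla2b, 0.40 for Ptger4, 0.12 for Pdgfrb, 0.15 for Cldn5 and -0.52 (SE 0.64) for Ltbp2. Myh11, Acta2, Ccn1 and Cldn5 had the sign they had at 10 months, and Tagln, the Ctla2 pair, Ptger4, Pdgfrb and Ltbp2 the opposite one, and a difference between the ages was not tested in cortex. Single arrays decided 2 of these signs: without Tg2576 replicate 2 the difference of Ctla2b was -0.04, and without WT replicate 2 that of Ltbp2 was 0.15. Within slide 2, the 3 Tg2576 arrays against its 1 WT array gave -0.56 for Ccn1, -0.39 for Myh11 and -0.26 for Acta2, and the signs of Pdgfrb (-0.04) and Ltbp2 (0.25) turned, while those of the remaining 5 genes did not. The meninges list was lower in Tg2576 for 13 of its 14 genes, with a median of -0.49 and a summed level of 26.2 to 38.9 in WT and 18.2 to 26.7 in Tg2576. All 12 choroid plexus genes were higher in Tg2576, with a median of 0.78 and a summed level of 9.99 to 23.7 in WT and 23.6 to 62.6 in Tg2576, and within groups Myh11 and Ptger4 correlated with that list at 0.50 and 0.48 over 24 arrays. The part of either list in these values was not tested.

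In the whole brain of 10-month-old mice 0 of 38109 probes (0%) passed the test, and none of the 10 genes did (limma, adjusted p at or above 0.431). Without adjustment, 3 of the 10 genes had a p under 0.05, against 11.4% of all probes, 4328 by limma and 3738 by the methods' t-test, which also passed 0 after adjustment. Ccn1 was lower in Tg2576 by a log2 difference of -0.53 (SE 0.18, limma adjusted p = 0.431), Ctla2a by -0.45 (SE 0.17, adjusted p = 0.437) and Ctla2b by -0.48 (SE 0.17, adjusted p = 0.434). Within slide 2, where 1 Tg2576 array met the 3 WT arrays, the differences were -0.24, -0.38 and -0.50. Myh11 differed by -0.38 (SE 0.18), and the remaining 6 genes by values from -0.10 to 0.46. All 6 blood genes were lower here too, with a median of -0.80 and a summed level of 34.2 to 143 in WT and 29.0 to 41.9 in Tg2576.

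In the whole brain of 17-month-old mice 0 of 36980 probes (0%) passed the test, and again none of the 10 genes (limma, adjusted p at or above 0.384). Ccn1 alone had an unadjusted p under 0.05, against 13% of all probes, 4803 by limma and 4292 by the methods' t-test, again with 0 after adjustment. Its difference was -0.27 (SE 0.11, limma adjusted p = 0.384). Myh11 differed by -0.44 (SE 0.20), while Ctla2a (0.38, SE 0.17) and Ctla2b (0.35, SE 0.18) were higher in Tg2576. All 6 arrays of this comparison lay on slide 3.

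**Figure D3:**
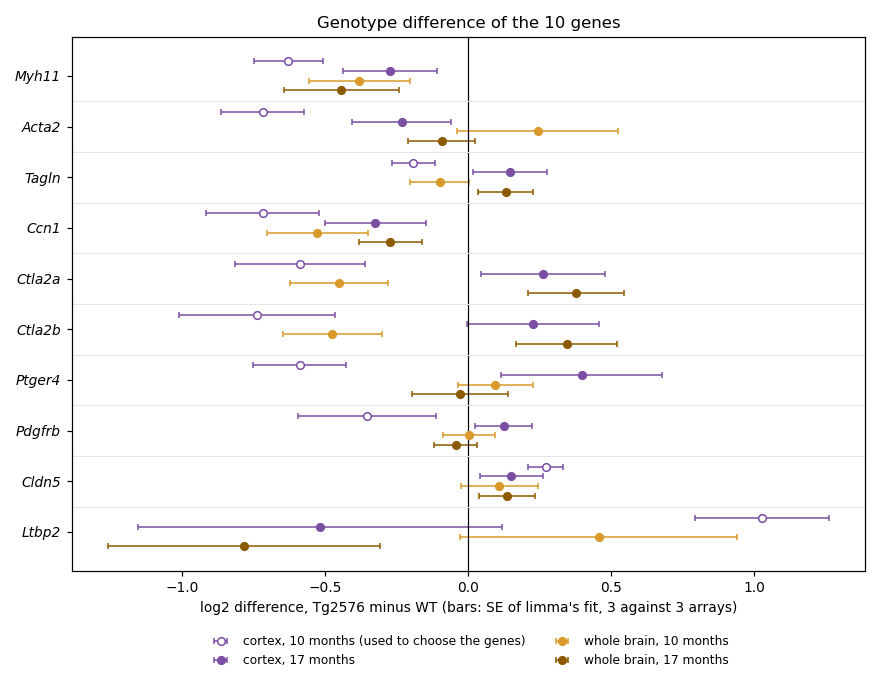
Difference of the log2 levels of Tg2576 and WT (x axis) for each of the 10 genes (y axis) in the 4 tissue and age pairs, with bars of 1 SE from the limma fit. Ccn1 and Myh11 lie below 0 in all 4, and the Ctla2 pair lies below 0 at 10 months and above 0 at 17 months.

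Ccn1 and Myh11 were lower in Tg2576 by group mean in the other 3 comparisons too, with none passing the test after adjustment. The 10-month-old whole brain arrays may not be independent of the cortex arrays that chose the set, since the deviations of Ccn1 in same-numbered arrays of the tissues correlated at 0.693. That correlation was over the 12 pairs of both ages, so the 17-month-old arrays of the tissues may not be independent of each other either. The comparisons, also those of the lists below, may therefore not be separate observations. The other genes of the CCN family and of the early response, a list of 19 tested genes that includes Ccn2, Egr1 and Klf2, read lower in Tg2576 for 16 genes in the 17-month-old cortex (median -0.25), for 13 in the 10-month-old whole brain (median -0.14) and for 16 in the 17-month-old whole brain (median -0.19), where all probes had medians of 0.01, -0.00 and 0.01. None of these genes passed the test (limma, adjusted p under 0.05). The meninges list was lower in the same comparisons, for 13 of 14 genes (median -0.49), 12 of 14 (median -0.21) and 10 of 14 (median -0.18), and its part in the early response values was not tested. The gene whose deviations from the group means were most like those of Ccn1, among 14587 genes, was Btg2, an early response gene that restrains cell division, with a correlation of 0.93 over 24 arrays.

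The age of the mice was the comparison in which members passed the test. In the whole brain of WT mice 4 of the 10 genes passed, against 27.8% of 37641 probes (4774 higher and 5705 lower at 17 months). Cldn5 rose 1.86-fold (log2 difference 0.90, SE 0.14, limma adjusted p = 0.00923) and Pdgfrb 1.52-fold (0.60, SE 0.091, adjusted p = 0.0084). Ctla2a fell 1.90-fold (-0.93, SE 0.15, adjusted p = 0.00906) and Ctla2b 1.91-fold (-0.94, SE 0.16, adjusted p = 0.012). The others were not called: Ltbp2 differed by 1.14 (SE 0.45, adjusted p = 0.106), Acta2 by 0.37, Myh11 by 0.33, Ptger4 by 0.28 (adjusted p = 0.105, and 0.0229 with quantile normalisation), Tagln by -0.26 and Ccn1 by -0.31. Acta2 was called without WT whole brain replicate 3 of 10 months (adjusted p = 0.0372), Ccn1 without replicate 2 (0.0361) and Ptger4 without replicate 1 (0.0292). The 10-month-old arrays lay on slide 2 and the 17-month-old arrays on slide 3, so age and slide cannot be told apart in this comparison. Deviations in same-numbered arrays of the tissues correlated at 0.976 for Ctla2a, 0.908 for Ctla2b and 0.618 for Cldn5. The 10-month-old whole brain arrays of both genotypes may thus not be independent of the cortex arrays that chose the set. The age differences of these genes may carry part of that choice.

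In the whole brain of Tg2576 mice 2 of the 10 genes passed, against 12.1% of 37899 probes (2491 higher and 2100 lower). Cldn5 rose 1.90-fold (0.92, SE 0.089, limma adjusted p = 0.0116) and Pdgfrb 1.47-fold (0.56, SE 0.077, adjusted p = 0.0176). Within slide 3, which held the 3 older arrays and 2 of the younger ones, the differences were 0.94 for Cldn5 and 0.55 for Pdgfrb, and with the slide as a block the adjusted p was 0.0382 and 0.0441. Both calls were lost without Tg2576 whole brain replicate 2 of 10 months (adjusted p = 0.0520 for Cldn5 and 0.0658 for Pdgfrb), replicate 3 of 10 months (0.0535 and 0.0608) or replicate 2 of 17 months (0.0542 and 0.0646), with differences of 0.86 to 0.96 for Cldn5 over all alternatives and 0.52 to 0.58 for Pdgfrb.

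The Ctla2 pair did not pass in Tg2576 mice: Ctla2a differed by -0.10 (SE 0.19, limma adjusted p = 0.760) and Ctla2b by -0.11 (SE 0.19, adjusted p = 0.716) between the ages. The age differences of the genotypes were set against each other in a test added after these values were seen. Its interaction term was 0.83 (SE 0.26, limma adjusted p = 0.197) for Ctla2a and 0.82 (SE 0.27, adjusted p = 0.202) for Ctla2b, with 0 of 38480 probes (0%) passing and 6448 below an unadjusted p of 0.05. A difference between the genotypes in the age effect of Ctla2a and Ctla2b was therefore not shown after adjustment over all probes. Hbb-bt fell by 2.58 on the log2 scale with age in WT (limma adjusted p = 0.0156) and differed by -2.19 in Tg2576, which was not called (adjusted p = 0.121). The part of blood in the Ctla2 values was not tested.

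**Figure D4:**
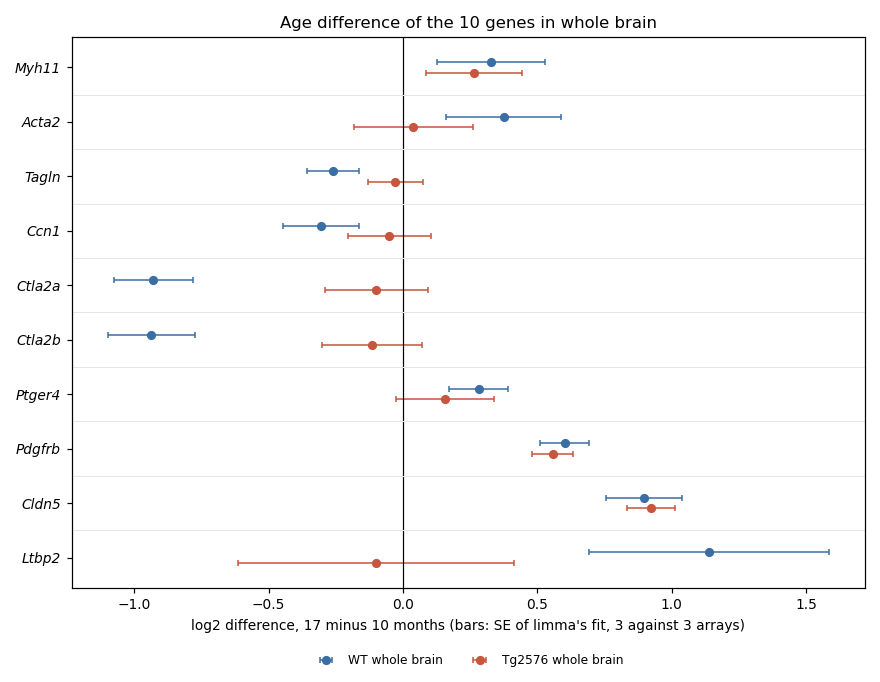
Difference of the log2 levels at 17 and 10 months in whole brain (x axis) for each of the 10 genes (y axis) in WT and Tg2576 mice, with bars of 1 SE from the limma fit. Cldn5 and Pdgfrb lie above 0 in both genotypes, while Ctla2a and Ctla2b lie near -0.9 in WT and near -0.1 in Tg2576.

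Cldn5 and Pdgfrb were not alone among vascular genes in being higher at 17 months. The counts called in each list are to be read against the 27.8% of all probes called in WT and the 12.1% in Tg2576. Whether the calls of listed genes hold under other processing was not tested. In Tg2576 the 4591 probes called fell to between 42 and 2679 when 1 array was left out, so its list calls may rest on single arrays. Of 30 endothelial genes, 17 rose and 3 fell in WT whole brain, with a median difference of 0.49 against -0.03 over all probes. They included Sox18, a transcription factor of endothelium, which rose by 1.49, Sox17 (1.11), Vwf, the von Willebrand factor (1.06), and Foxq1 (1.01). In Tg2576 whole brain 13 of the 30 rose and 5 fell, with a median of 0.40 against -0.02, and Sox18 rose by 1.44, Vwf by 1.28, Eng, a TGF-beta co-receptor, by 1.0 and Robo4 by 0.96. Pecam1, another endothelial gene, read -1.65 ± 0.23 at 10 months and -1.71 ± 0.1 at 17 months in WT whole brain, so the list did not move as 1 block.

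Among 22 tested genes of smooth muscle cells and pericytes, 8 rose and 2 fell in WT (median 0.18) and 7 rose and 1 fell in Tg2576 (median 0.22). Ndufa4l2, a mitochondrial protein enriched in pericytes, rose by 2.37 in WT and 1.23 in Tg2576, Notch3, the receptor of mural cells, by 1.12 and 0.93, Cspg4, the proteoglycan NG2, by 0.75 and 0.73, and Anpep by 0.90 and 0.68. Mcam, an adhesion molecule of vessel walls, fell by 0.55 in WT, and Rgs5, a pericyte regulator of G protein signalling, fell by 0.60 in Tg2576. The contractile genes of the set did not take part at this threshold: Myh11, Acta2 and Tagln were not called with age in either genotype.

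Lists of genes around Ltbp2, Pdgfrb and Ptger4 were followed in the same way. Of 16 genes of latent TGF-beta and elastic fibres, 8 rose and 0 fell in WT (median 0.32), with Tgfb1 at 1.04, Ltbp4 at 1.01, Tgfb2 at 0.55 and Eln, elastin, at 0.52, and 3 rose and 0 fell in Tg2576 (median 0.27), with Tgfb1 at 1.11, Ltbp4 at 0.90 and Efemp2 at 0.43. Of 15 genes of the platelet-derived growth factors and of prostaglandin E, 4 rose and 1 fell in WT (median 0.16): Pdgfb, the ligand of Pdgfrb, rose by 0.74, the prostaglandin transporter Slco2a1 by 0.67 and the receptor Ptger1 by 0.34, while the ligand Pdgfd fell by 0.98. In Tg2576 3 rose and 1 fell (median 0.03), with Pdgfb at 0.48, Pdgfa at 0.42 and the cyclooxygenase genes Ptgs1 at 0.36 and Ptgs2 at -0.66. Of the 19 CCN and early response genes, 4 rose and 1 fell in WT (Egr1 by 0.82, Ier3 by 0.70 and Fosb by 0.39, and Ccn5 at -0.82) and 2 rose in Tg2576, Klf2 by 1.35 and Amotl2 by 0.35. The CCN and early response list, with 5 of 19 genes called in WT and 2 of 19 in Tg2576, was near the share of all probes in both genotypes, and the list of platelet-derived growth factors and prostaglandin E, with 5 of 15, was near it in WT. Beside them, 6 of 14 meninges genes rose and 2 fell in WT, and 0 of the 6 tested blood genes rose and 2 fell, with a median of -1.04; the part of the other cell types in the vascular values was not tested.

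**Figure D5:**
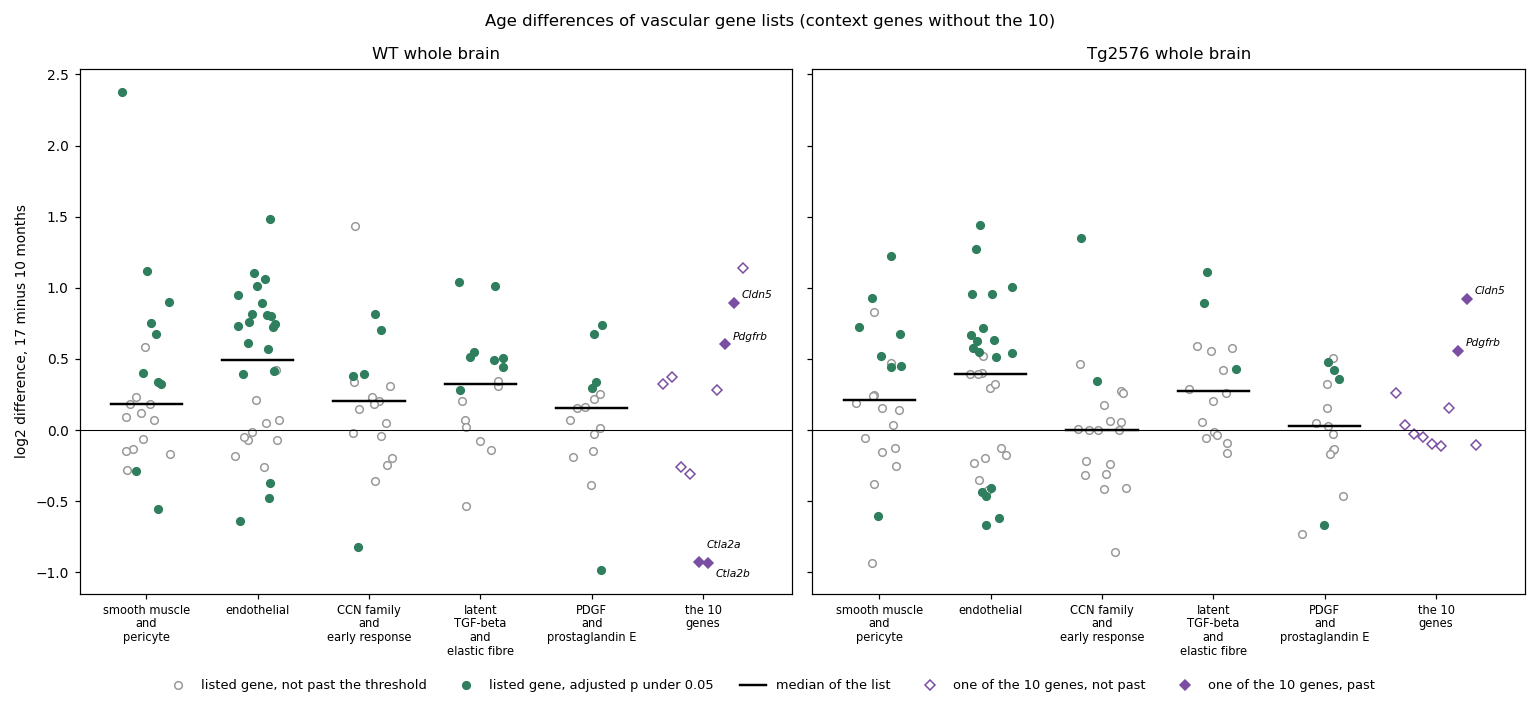
Difference of the log2 levels at 17 and 10 months in whole brain (y axis) for the genes of 5 vascular lists and the 10 genes (x axis), in WT and in Tg2576 mice, with 1 point for each gene tested, filled where its adjusted p was under 0.05, and a bar at the median of each list. The endothelial list has the highest median of the 5 lists in both genotypes, 0.49 in WT and 0.40 in Tg2576.

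The cortex was set against the whole brain at 17 months. In WT mice none of the 10 genes passed, against 10.3% of 38018 probes (2451 higher and 1466 lower in cortex), and in Tg2576 mice none, against 1.97% of 38575 probes (587 higher and 173 lower). By limma 4 of the 10 genes in WT and 2 in Tg2576 had an unadjusted p under 0.05, shares near those of all probes (30.9% and 20.9%). After adjustment the methods' t-test passed none of the 10 genes, and 1354 probes in WT and 44 in Tg2576. Cldn5 differed by -0.36 in WT (SE 0.11, limma adjusted p = 0.0868, and 0.0219 in a model of all 24 arrays) and by -0.35 in Tg2576 (SE 0.10, adjusted p = 0.129, and 0.0451 in that model), with no overlap between the tissues in either genotype. Of all probes tested, 17.8% in WT and 12.7% in Tg2576 were lower in cortex without overlap. Of the 30 endothelial genes, 9 were lower and 0 higher in WT cortex (median -0.23), and none passed in Tg2576 (median -0.16). The 3917 probes called in WT became 3 to 5350 when 1 array was left out. The list calls in WT may thus rest on single arrays, and nothing is read from their contrast with Tg2576. Myh11 had the opposite sign, 0.38 in WT (adjusted p = 0.241) and 0.55 in Tg2576 (SE 0.17, adjusted p = 0.147). Pdgfrb differed by -0.28 in WT (adjusted p = 0.121, and 0.0472 without WT cortex replicate 3) and by -0.11 in Tg2576 (adjusted p = 0.454). A difference between the genotypes in the tissue difference was not shown for any of the 10 genes (limma interaction, 0 of 39128 probes, 0%, with 4199 below an unadjusted p of 0.05). In neither genotype did a slide hold both tissues at 17 months (cortex on slides 1 and 2, whole brain on slide 3), so tissue and slide cannot be told apart in these values.

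The comparisons of cortex between ages and of tissues at 10 months share the 10-month-old cortex arrays that chose the set, and are given by level. Cldn5 had means of 1.12 ± 0.041 and 1.80 ± 0.13 in WT cortex at 10 and 17 months, and of 1.39 ± 0.05 and 1.95 ± 0.14 in Tg2576 cortex (SD, n = 3). Pdgfrb had -0.60 ± 0.11 and -0.30 ± 0.15 in WT, and -0.95 ± 0.49 and -0.17 ± 0.048 in Tg2576. Ctla2a had 1.05 ± 0.41 and 0.06 ± 0.022 in WT, and 0.46 ± 0.22 and 0.32 ± 0.45 in Tg2576. Levels of the other genes stand with each gene, and nothing on age is read from these arrays.

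Each gene's pattern was also matched to all others by the correlation of deviations from group means over the 24 arrays, as a description. Besides Ctla2b for Ctla2a, the closest genes were Myl9, the regulatory light chain of smooth muscle myosin, for Acta2 (0.81), Klhl26 (0.88) and Lrfn1 (0.85) for Pdgfrb, Gdf10, a TGF-beta family growth factor, for Ltbp2 (0.86), Zfp217 for Cldn5 (0.82), Eci3 for Ctla2b after Ctla2a (0.83) and Oxsm for Myh11 (0.77). Among the 10 genes themselves the contractile genes were only loosely tied within groups, with 0.52 for Acta2 and Tagln, 0.36 for Myh11 and Acta2 and 0.17 for Myh11 and Tagln. Cldn5 and Pdgfrb correlated at 0.77 over the arrays and at 0.08 once the group means were removed.

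Vascular miRNAs were read from the 24 miRNA arrays of the same groups, without a test. The level of miR-126-3p, an endothelial miRNA, lay between 0.42 and 0.73 on all 24 arrays, relative to the 75th percentile of the 403 probes detected on every array. The smooth muscle miRNA miR-143 lay between -3.57 and -3.16 and was detected on all 24 arrays. Its partner miR-145 was at the floor of the scale on 24 arrays and detected on 1, and miR-126-5p was at the floor on 14 and detected on 20. In 10-month-old cortex miR-126-3p ran from 0.52 to 0.60 in WT and from 0.47 to 0.51 in Tg2576. In 10-month-old whole brain it ran from 0.42 to 0.54 in WT and from 0.58 to 0.61 in Tg2576. These ranges did not overlap and went in opposite directions. The genotypes overlapped at 17 months, with 0.48 to 0.63 in WT and 0.60 to 0.70 in Tg2576 cortex. The 17-month-old whole brains ran from 0.49 to 0.73 in WT and from 0.64 to 0.70 in Tg2576. The share of all miRNAs without overlap was not counted, and nothing is read from these ranges. In 10-month-old cortex miR-143 read -3.35 ± 0.13 in WT and -3.42 ± 0.046 in Tg2576 (SD, n = 3), a difference within the spread.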

How the data were processed

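RNA of brain samples was hybridised to 24 mRNA and to 24 miRNA arrays. The authors deposited the scanner intensity of each spot, background-subtracted by Agilent Feature Extraction 10.7.3.1 per the labels, and a table of log2 values, which equalled the log2 intensity minus the array's 75th percentile within 0.01 for at least 99.8% of values. Here the deposited intensities were scaled in that way after control spots were left out, and spots of a probe were averaged. Probes entered a test if 2 or more arrays of either group were flagged well above background. Differences were tested with limma 3.58.1 in R 4.3.3 (lmFit and eBayes over the arrays compared), with Benjamini-Hochberg adjustment over all probes tested and a threshold of 0.05. The members and lists were chosen with earlier results of these data known. In each comparison and list, up to 4 genes past the threshold with the largest difference are named, beside a few anchor genes. Samples were grouped by the labels alone. The scripts' test was checked on simulated data. Alternatives were another scaling, background correction, filter, source of values, set of arrays, block and test, and leaving out each array. The miRNA intensities were scaled likewise over the probes detected on every array. The number of arrays limits the precision. Same-numbered samples were not taken as pairs, since their deviations did not all correlate above 0.1.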

Additional observations from a re-analysis of the deposited data

How the results depend on the processing

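With 3 arrays a group small differences could not be resolved, Ptger4 was near the background and the Myh11 probe was dim. Of 1460 values of the 10 genes under an alternative, 1441 were counted as unchanged, while 9 gained and 8 lost the threshold. Another 2 moved (Myh11 and Ptger4 in 10-month-old cortex with normexp, to -0.26 and -0.0062). None of the called ones reversed, while 82 uncalled ones changed sign. The 1460 include the values of the 10-month-old cortex contrast, which was not tested and has no threshold to keep. The calls with age in WT whole brain held under all 13 alternatives (highest adjusted p 0.0448), while those of Cldn5 and Pdgfrb in Tg2576 were lost in 4 of 14. Ptger4 was called in Tg2576 with normexp with age (adjusted p 0.0198) and between tissues (0.0474). Counts of probes passing limma's test moved more than the members' differences did, and the cause was not tested. In a model of all 24 arrays 81 probes passed between genotypes in 17-month-old cortex, 13 in 10-month-old and 1 in 17-month-old whole brain and 3 in 10-month-old cortex, 8241 and 3885 between tissues in WT and Tg2576, 10146 with age in Tg2576, 7 in the tissue interaction and 10 in the age interaction. With the slide as a block the counts were 43 and 6 between genotypes in 17-month-old cortex and 10-month-old whole brain, 797 between tissues in WT (random block, as no slide held both tissues), 1859 with age in Tg2576, and 62 and 9 in the interactions; the other comparisons lay on 1 slide or had each group on a slide of its own. With the replicate block, whose numbers have no stated shared origin, 2 and 0 passed between tissues in WT and Tg2576, and 4760 and 13 with age in WT and Tg2576, where the adjusted p of Cldn5 was 0.0815 and of Pdgfrb 0.0837; it changed no other call of the 10 genes. Without the filter on dim probes the counts were 3 and 7208 between tissues and 5244 and 10142 with age, in WT and Tg2576. With normexp they were 2744 between tissues (915 higher) and 7317 with age (4971 higher) in Tg2576, and 1 between genotypes in 10-month-old cortex. The methods' t-test gave 1354 and 44 between tissues and 2774 with age in Tg2576. Leaving out 1 array gave 0 in 17-month-old cortex, 0 to 1 in whole brain of either age and 0 to 8 in 10-month-old cortex between genotypes, 3 to 5350 and 0 to 69 between tissues in WT and Tg2576, 5918 to 7866 and 42 to 2679 with age, and 0 to 39 and 0 to 718 in the tissue and age interactions. Each gene had 1 probe, so a mean over its probes gave no other value.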
